A study of Homo sapiens with 4 samples.

Results

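The cilium genes with IFT, BBS, CFAP or DNAH symbols were examined in 4 RNA-seq libraries from human ovarian cancer cell lines. Members were all symbols in the count tables that begin with one of these 4 groups of letters followed directly by a digit, without hyphenated symbols and pseudogenes. This gave 62 of 52402 symbols, of which 14 were IFT, 8 BBS, 27 CFAP and 13 DNAH genes. The 22 IFT and BBS genes are called trafficking genes here, and the 40 CFAP and DNAH genes motile genes. A further 4 hyphenated antisense symbols (CFAP44-AS1, CFAP58-AS1, DNAH17-AS1 and IFT74-AS1) were left out, and no pseudogene symbol matched.

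The 4 groups held 1 library each: SKOV3 with knockout (KO) of HERV-K119, SKOV3 mock control, OVCAR3 with the same knockout, and OVCAR3 mock control. SKOV3 and OVCAR3 are epithelial ovarian cancer lines, and HERV-K119 is an endogenous retrovirus whose env gene, the envelope gene, was targeted with CRISPR-Cas9. All cells, mock included, were grown in RPMI medium with serum, transfected, and exposed about 18 h later to hygromycin at 100 μg/mL for 2 days. The labels do not say whether the KO cells were 1 clone or a selected pool. The knockout itself was not analysed here.

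A cilium grows from a basal body around microtubule doublets, the axoneme. Intraflagellar transport (IFT) trains carry cargo along the axoneme: the IFT-B complex works with kinesin toward the tip and the IFT-A complex with dynein-2 back to the base. The BBSome, made of BBS proteins, moves membrane proteins in and out of the cilium. These trafficking parts serve every cilium, including the single immotile primary cilium that many epithelial cells can build. DNAH genes encode the heavy chains of the axonemal dynein motors, and many CFAP genes encode structural parts of the beating axoneme. Motile cilia are a hallmark of multiciliated cells of the fallopian tube and airway, and of sperm flagella. The RFX transcription factors bind X-box motifs in promoters of many cilium genes, and FOXJ1 drives the motile programme.

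Library totals lay between 15145483 and 22057693 counts. The OVCAR3 KO library stood apart from the other 3: 21.9% of its counts came from mitochondrial genes, against 5.93% in OVCAR3 mock, and 15275 genes reached 1 CPM (counts relative to library size, scaled by the trimmed mean of M values), against 13208 in OVCAR3 mock. Of 11 measured line and tissue markers 7 were at least 2-fold lower in that KO library, among them KRT19, KRT8, KRT7 and CDH1, and MUC16 was higher, with 91 counts in KO and 45 in mock. Line markers went against a label in the SKOV3 libraries: CDKN2A, which is deleted in SKOV3 cells, had 1438 counts in the library labelled SKOV3 KO and 2046 in the library labelled SKOV3 mock. On the same list, WT1 had 0 counts in every library, and ERBB2 had 58.5 CPM in SKOV3 mock and 73.3 in OVCAR3 mock. MUC16 had 1 count in SKOV3 mock and 45 in OVCAR3 mock. Both lines are therefore named here as labelled, and their identity was not tested. The immune marker PTPRC had 0 counts in every library.

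Several defining markers of multiciliated cells were at or near 0. FOXJ1 had 3 counts in SKOV3 KO and 4 in SKOV3 mock, and 1 count in OVCAR3 KO and 4 in OVCAR3 mock. SNTN, C20orf85 and C5orf49 had 0 counts in every library. MCIDAS and CCNO, also on the list, went the other way and were above 1 CPM in every library. MCIDAS had 72 counts in SKOV3 KO and 74 in SKOV3 mock, and 37 in OVCAR3 KO and 30 in OVCAR3 mock. CCNO had 147 counts in SKOV3 KO and 142 in SKOV3 mock, and 74 in OVCAR3 KO and 103 in OVCAR3 mock. Of the 16 listed markers, 6 had 0 counts in SKOV3 KO and 6 in SKOV3 mock, while 3 had 0 counts in OVCAR3 KO and 5 in OVCAR3 mock. Their summed level was 302.7 CPM in SKOV3 KO and 259.9 CPM in SKOV3 mock, and 126.2 CPM in OVCAR3 KO against 295.7 CPM in OVCAR3 mock, most of it from the tubulin gene TUBB4B. In OVCAR3 7 of the 16 reached 1 CPM in a library of the pair, and with the size rule given below 2 were higher and 1 lower in KO, with a median log2 ratio of 0.44. CCDC78, a deuterosome protein, had 91 counts in OVCAR3 KO and 18 in OVCAR3 mock, CAPS had 41 counts in KO and 15 in mock, and TUBB4B had 1548 counts in KO and 4636 in mock. C9orf24 had 14 counts in OVCAR3 KO and 0 in OVCAR3 mock. In SKOV3 6 were measured, all with a ratio above 0 and none past the rule, with a median of 0.39. The part of these markers in the motile results was not tested.

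Promoters are shown first because RFX factors bind X-box motifs in promoters of many cilium genes. The motif searched was 6 bases, GTTGCC on either strand, which is part of 1 arm of an X-box and not a whole X-box, in RefSeq promoter windows of 300 bases (250 before and 50 after the start, build GRCh38.p14). A window was found for 55 of the 62 members. The motif was present for 16 of 35 motile genes (45.7%) and 9 of 20 trafficking genes (45%), against 3983 of 27305 genes in all (14.6%). By family the shares were 46.2% for IFT, 42.9% for BBS, 45.8% for CFAP and 45.5% for DNAH. The motile and trafficking shares were therefore alike in size, and no test of the difference was made. A longer form, GTTGCCAT, contains the shorter motif. It was found for 17.1% of motile genes, 0% of trafficking genes and 1.63% of all genes. A paired form, GTTNCC facing GGNAAC across 2 bases, was searched on both strands after the data were seen. It was found for DNAH1 and CFAP45 and for no other member, so for 0 trafficking genes. Among all genes its share was 0.593%. A match describes letters in the window, and binding of a factor was not measured.

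**Figure D1:**
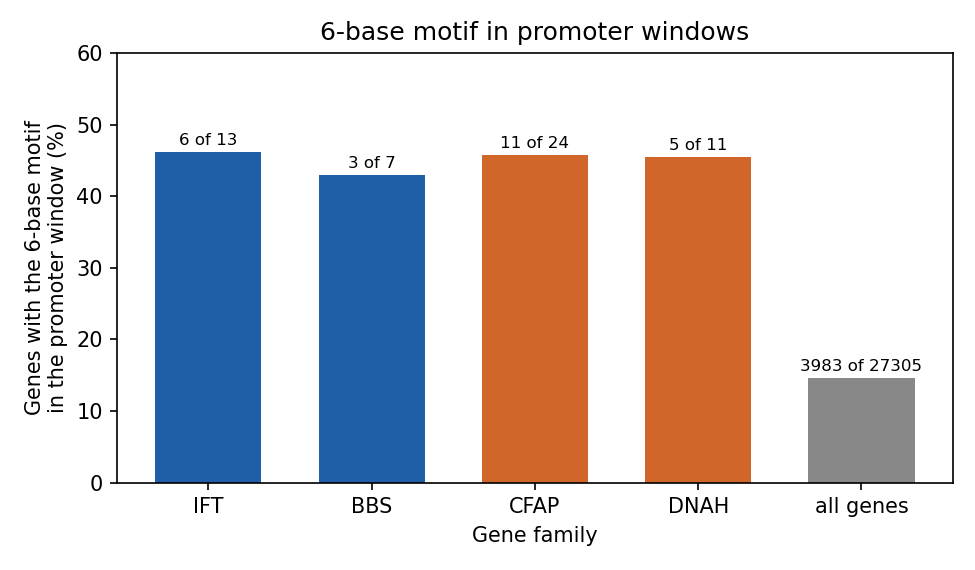
Share of genes in each family whose promoter window holds the 6-base motif on either strand, in percent, with the gene counts above the bars; blue bars are trafficking families, orange bars motile families and the grey bar all genes. All 4 families sit between 42.9% and 46.2%, and all genes at 14.6%.

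The stretches below lie directly before the start of the first RefSeq window of each gene and are written 5′ to 3′ on the gene's strand, with the motif on either strand in capitals. The genes were picked, with their values known, from members past the size rule given below that hold the motif, plus IFT122 as an IFT-A gene with the motif close to the start. DNAH1 (chr3:52316139-52316318, plus strand) has a pair facing each other with 2 bases between them. CFAP65 lies at chr2:219041517-219041636 on the minus strand, CFAP74 at chr1:2003787-2003906 on the minus strand, DNAH12 at chr3:57544345-57544464 on the minus strand and CFAP45 at chr1:159900166-159900285 on the minus strand. DNAH10 lies at chr12:123762181-123762300, BBS5 at chr2:169479374-169479493 and IFT122 at chr3:129440104-129440223, all on the plus strand.
DNAH1: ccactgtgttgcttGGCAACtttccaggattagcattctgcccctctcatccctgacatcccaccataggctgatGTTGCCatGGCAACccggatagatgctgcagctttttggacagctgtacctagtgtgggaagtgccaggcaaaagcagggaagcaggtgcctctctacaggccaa
CFAP65: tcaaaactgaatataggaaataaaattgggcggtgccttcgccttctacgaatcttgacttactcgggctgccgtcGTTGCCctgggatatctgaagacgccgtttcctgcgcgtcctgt
CFAP74: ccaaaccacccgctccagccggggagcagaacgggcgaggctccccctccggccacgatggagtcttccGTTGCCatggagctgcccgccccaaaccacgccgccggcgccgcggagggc
DNAH12: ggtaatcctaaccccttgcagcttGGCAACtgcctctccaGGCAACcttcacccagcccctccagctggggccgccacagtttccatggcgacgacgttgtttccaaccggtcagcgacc
CFAP45: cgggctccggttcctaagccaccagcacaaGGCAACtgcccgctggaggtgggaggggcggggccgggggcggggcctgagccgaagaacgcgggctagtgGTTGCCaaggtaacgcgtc
DNAH10: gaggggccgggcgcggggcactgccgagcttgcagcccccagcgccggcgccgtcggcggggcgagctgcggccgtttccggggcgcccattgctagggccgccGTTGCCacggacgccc
BBS5: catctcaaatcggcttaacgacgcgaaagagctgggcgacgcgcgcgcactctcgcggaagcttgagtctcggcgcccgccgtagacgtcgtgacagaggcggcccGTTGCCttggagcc
IFT122: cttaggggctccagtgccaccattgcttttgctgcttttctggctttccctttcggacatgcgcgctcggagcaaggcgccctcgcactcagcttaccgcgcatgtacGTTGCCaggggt
In DNAH1 the motif begins 166, 105 and 97 bases before the start, the most copies among the stretches shown. In BBS5 it begins 14 bases before the start, in IFT122 12 and in DNAH10 16, so these 3 place it next to the start. DNAH12 holds copies 96 and 80 bases before the start, and CFAP45 holds copies 90 and 19 bases before it. CFAP43, CFAP44, CFAP69, CFAP70, CFAP77, CFAP221 and DNAH14, also past the size rule in OVCAR3, had no GTTGCC in their windows. CFAP126 and IFT81, past it as well, hold the motif but are not shown. The stretches were picked for holding the motif, so no link between it and a difference is read from them.

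Median levels of the trafficking and motile genes lay apart in every library, while single genes of the classes overlapped. Per kilobase of the longest annotated transcript, the median trafficking gene stood at 6.17 CPM per kb in SKOV3 KO and 5.71 in SKOV3 mock, and at 6.91 in OVCAR3 KO and 6.12 in OVCAR3 mock. The median motile gene stood at 0.194 CPM per kb in SKOV3 KO and 0.188 in SKOV3 mock, and at 0.3 in OVCAR3 KO and 0.224 in OVCAR3 mock. The ratio of these class medians was 31.8 in SKOV3 KO, 30.4 in SKOV3 mock, 23 in OVCAR3 KO and 27.3 in OVCAR3 mock. It was lowest, at 16.4 in OVCAR3 KO against 23.4 in OVCAR3 mock, with the median transcript length in place of the longest.

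All 22 trafficking genes reached 1 CPM in all 4 libraries, and 17 of the 40 motile genes did. A further 12 motile genes stayed under 1 CPM in all 4 libraries: CFAP47, CFAP52, CFAP54, CFAP61, CFAP73, CFAP99, CFAP100, CFAP161, DNAH7, DNAH8, DNAH9 and DNAH11. Of these, CFAP47, CFAP73, CFAP100, DNAH7, DNAH8 and DNAH9 had 0 counts in at least 1 library. A count of 0 allows a level of up to 0.19 CPM in SKOV3 KO, 0.133 in SKOV3 mock, 0.204 in OVCAR3 KO and 0.183 in OVCAR3 mock, by counting error only.

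The families were not uniform. CFAP20, a protein of the inner junction of the doublet microtubules, CFAP36 and CFAP97 were the most abundant motile genes. Per kilobase of the longest transcript, CFAP20 and CFAP97 exceeded every trafficking gene in all 4 libraries, and CFAP36 lay near the highest of them. CFAP20 had 30.4 CPM per kb in SKOV3 KO and 29.8 in SKOV3 mock, and 36.5 in OVCAR3 KO and 31.3 in OVCAR3 mock. CFAP36 had 18.1 in SKOV3 KO and 18.5 in SKOV3 mock, and 26.9 in OVCAR3 KO and 17.9 in OVCAR3 mock. These 3 genes, singled out after their values were seen, held 70.6% of all motile counts in SKOV3 KO and 72.5% in SKOV3 mock, and 65.2% in OVCAR3 KO and 77.6% in OVCAR3 mock. CFAP53, a microtubule inner protein, and DNAH14, an axonemal dynein heavy chain, followed at 2.67 and 1.61 CPM per kb in SKOV3 KO and 2.49 and 1.74 in SKOV3 mock. In OVCAR3 the same pair stood at 2.97 and 2.47 CPM per kb in KO and 1.61 and 1.11 in mock. With the median transcript length, CFAP97 still exceeded every trafficking gene in all 4 libraries. CFAP20 did not: it had 67.3 CPM per kb in SKOV3 mock against 71.3 for IFT57, and 82.6 in OVCAR3 KO against 92.3 for IFT52. CFAP36 then had 33.7 in SKOV3 mock, well under IFT57.

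Levels of the trafficking genes are again per kilobase of the longest transcript. BBS10, a chaperonin-like protein that helps assemble the BBSome, had 15.9 CPM per kb in SKOV3 KO and 19 in SKOV3 mock. In OVCAR3 it had 18.1 in KO and 16.3 in mock. IFT52, a core subunit of IFT-B, had 20.3 and 18.5 CPM per kb in SKOV3 KO and mock, and 27 and 20.4 in OVCAR3 KO and mock. IFT20, an IFT-B subunit that also sits at the Golgi, had 17.9 CPM per kb in SKOV3 KO and 16.2 in SKOV3 mock, and 13.7 in OVCAR3 KO and 14.4 in OVCAR3 mock. These and IFT43 (IFT-A) and IFT57 (IFT-B) were the 5 highest trafficking genes by this measure in SKOV3 mock. With the median transcript length, BBS10 had 19.1 CPM per kb in SKOV3 mock, under the trafficking median of 20.6. Its place among the highest therefore depended on the length used.

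**Figure D2:**
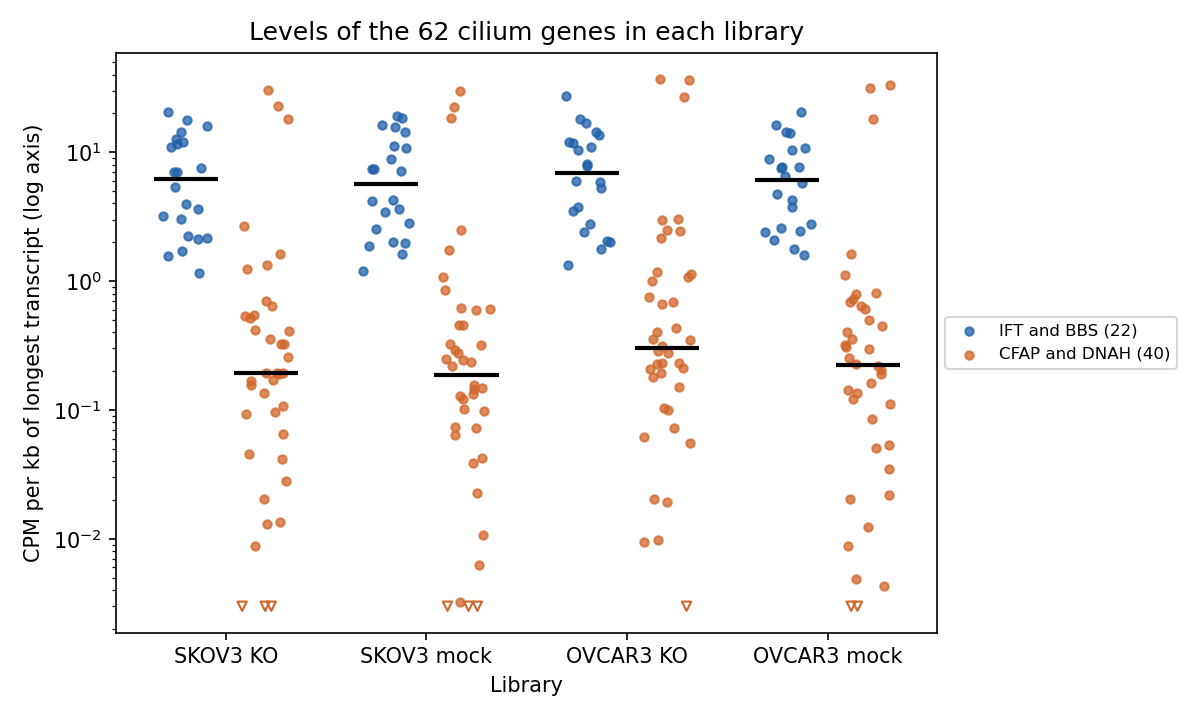
Level of each of the 62 genes in each library, in CPM per kb of the longest transcript on a log axis; blue points are IFT and BBS genes, orange points CFAP and DNAH genes, black bars the class medians, and open triangles at the bottom genes with 0 counts. The median trafficking gene sits between 5.71 and 6.91 in the 4 libraries, and the median motile gene between 0.188 and 0.3. CFAP20, CFAP36 and CFAP97 lie among or above the highest trafficking genes. Some other motile genes, such as CFAP53, lie in the lower part of the trafficking range.

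The first comparison asked how the knockout and mock libraries differed in SKOV3. The log2 ratio of KO over mock was computed from CPM with a prior count of 2. A gene was called higher or lower where the log2 ratio reached 1 or -1 and either library of the pair reached 1 CPM. Nothing was replicated within a line, so no p-value is given there. The brackets after a ratio are exact 95% intervals of the count ratio (Clopper-Pearson), which cover counting error only.

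In SKOV3 no trafficking gene passed the size rule. All 22 were measured, with ratios between -0.31 and 0.40 and a median of -0.02, beside a median of 0.01 over all 13524 genes measured. The sum over the IFT-A genes gave a log2 ratio of -0.14 (-0.27 to -0.01) and over the IFT-B genes 0.09 (0.03 to 0.15), both small. The lowest ratio was that of IFT43, with 22.3 CPM in KO and 27.6 in mock, and the highest that of IFT22, a small GTPase of IFT-B, with 26.4 CPM in KO and 20 in mock. The intervals of 2 genes lay wholly above 0 and of 2 wholly below 0.

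Of the 40 motile genes 24 were measured in SKOV3; 3 were higher and 0 lower, against 0.799% higher and 0.739% lower among all genes measured. The filter admits a gene on its higher library, so the 24 are not a sample of the family. Split by the mean over the 4 libraries, a division chosen after the data were seen, 4.6% of protein-coding genes under 5 CPM were higher and 2.39% lower, and 3 of the 18 motile genes at that level were higher (16.7%). At 5 CPM or more 0.0485% were higher and 0.0291% lower, and 0 of 6 motile genes. Over all 40 motile genes the median ratio was 0.13, with 23 above 0 and 16 below.

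The 3 genes that were higher in SKOV3 KO rested on few counts. CFAP43, part of the tether that holds an inner dynein arm to the doublet, had 113 counts (7.17 CPM) in KO and 75 counts (3.32 CPM) in mock, a log2 ratio of 1.08 (0.68 to 1.55). DNAH12, an inner-arm dynein heavy chain, had 32 counts (2.03 CPM) in KO and 20 counts (0.886 CPM) in mock, a ratio of 1.10 (0.35 to 2.08). CFAP45, a microtubule inner protein, had 20 counts in KO and 13 in mock, at 1.00 (0.06 to 2.27), just inside the rule. CFAP45 fell outside it under another scaling, at 0.99. The next motile gene, CFAP206, stood at 0.54. CFAP43 thus carried the most reads of the 3.

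In OVCAR3 the trafficking genes differed little between KO and mock, while many motile genes were higher in KO. At a mean under 5 CPM over the 4 libraries, the motile share (40%) was near that of protein-coding genes (41.3%). At 5 CPM or more 3 of 6 motile genes were higher, beside 6.86%. All 22 trafficking genes were measured; 2 were higher and 0 lower, against 22.5% higher and 15.4% lower among the 15560 genes measured. Their median ratio was 0.09, below the median of 0.16 over all genes measured. The scaling set the sign of this median. With factors computed over all genes, a setting tried first and then replaced, it was -0.20 and the median of all genes -0.17, and no trafficking gene passed the rule. The split of all genes was then 17.1% higher and 22.5% lower, and with DESeq2 size factors 18.4% higher and 20.3% lower.

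The 2 trafficking genes past the rule belong to different complexes. IFT81, an IFT-B subunit that binds tubulin cargo together with IFT74, had 24.4 CPM in OVCAR3 KO and 11.6 in OVCAR3 mock, a log2 ratio of 1.07 (0.82 to 1.34). BBS5, a BBSome subunit that binds membrane lipids, had 13 CPM in OVCAR3 KO and 6.15 in OVCAR3 mock, at 1.07 (0.73 to 1.45). In SKOV3 the same genes showed ratios of 0.02 (-0.26 to 0.31) for IFT81 and -0.23 (-0.62 to 0.14) for BBS5. Just outside the rule in OVCAR3 stood IFT57 at 0.68 and IFT80 at 0.64, both IFT-B. IFT74, the partner of IFT81, had 28.7 CPM in KO and 26.4 in mock, and IFT172, the large peripheral IFT-B subunit, had 9.77 CPM in KO and 14.3 in mock, the lowest trafficking ratio at -0.54 (-0.86 to -0.24).

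Summed over the complex, IFT-B counts gave a ratio of 0.36 (0.30 to 0.42) in OVCAR3 and IFT-A counts -0.10 (-0.23 to 0.03). The IFT-A genes IFT122, IFT140 and IFT43 lay between -0.26 and 0.03. The 6 BBSome core genes gave 0.20 (0.09 to 0.30), and the chaperonin-like BBS10 and BBS12 gave 0.13 (0.00 to 0.25). The shift of all genes between scalings reached -0.28, which is larger than each of the BBS ratios, so the direction of these depends on the scaling.

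Of the 40 motile genes 26 were measured in OVCAR3; 11 were higher and 1 lower, with a median ratio of 0.76. Over all 40, measured or not, the median was 0.66, with 34 above 0 and 6 below. With no level filter the median over all 26950 genes was 0.51, and 30% of them were higher. The background depended on the level of a gene. Among protein-coding genes with a mean under 5 CPM over the 4 libraries, 41.3% were higher and 10.7% lower, and 8 of the 20 motile genes at that level were higher (40%), near the background. Among protein-coding genes at 5 CPM or more, 6.86% were higher and 19.9% lower, and 3 of 6 motile genes were higher: CFAP44, DNAH1 and DNAH14, of which DNAH14 did not stay past the rule under other scalings. DNAH1 reached a mean of 5 CPM through its OVCAR3 KO value, so its place at this level is not independent of the ratio. The 22 trafficking genes were all at 5 CPM or more, and 2 of them were higher (9.09%), near the background of 6.86%.

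**Figure D3:**
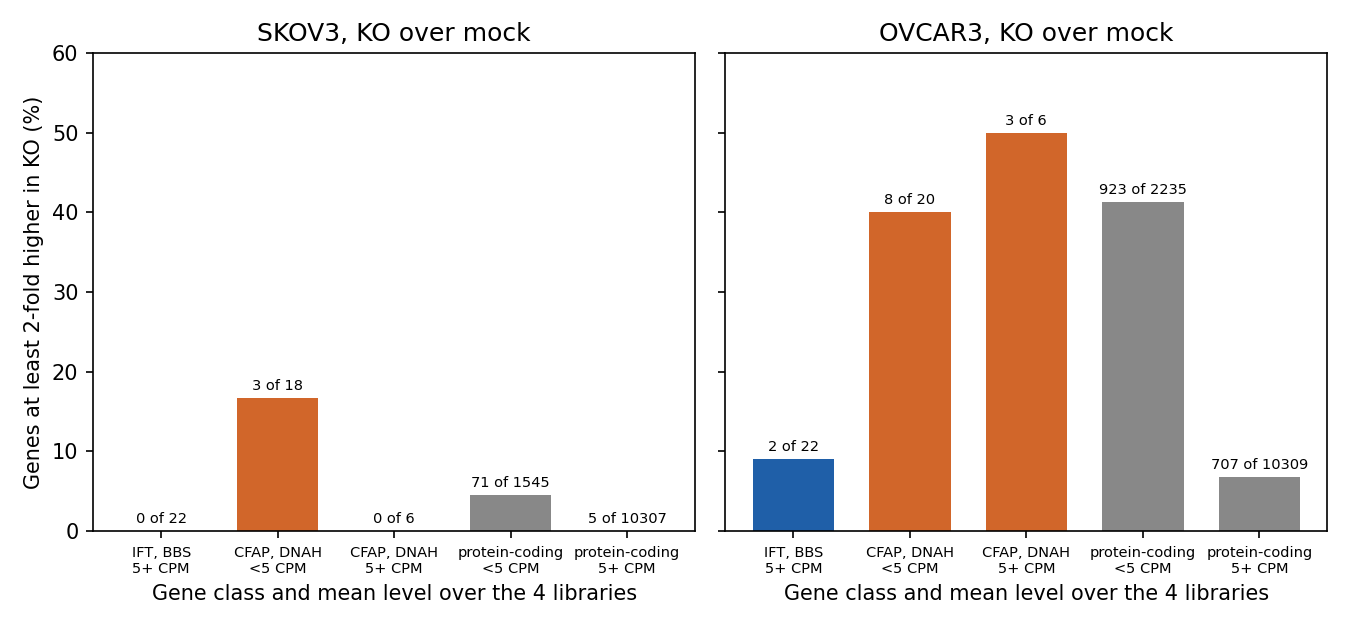
Percent of measured genes that were at least 2-fold higher in KO, by line, gene class and mean CPM over the 4 libraries, with gene counts above the bars. In OVCAR3 the 20 motile genes under 5 CPM sit at 40% beside 41.3% of protein-coding genes at that level; at 5 CPM or more, 3 of 6 motile genes stand beside 6.86%.

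Among the dynein heavy chains, DNAH1, DNAH10 and DNAH14 were past the rule in OVCAR3, all grouped with the inner arm here. In that group 6 of 8 genes were measured, against 2 of 5 of the outer arm. DNAH1, an inner-arm heavy chain, had 424 counts (28.8 CPM) in OVCAR3 KO and 97 counts (5.9 CPM) in OVCAR3 mock, a log2 ratio of 2.26 (1.96 to 2.62). In SKOV3 it had 4.31 CPM in KO and 3.32 in mock, at 0.37 (-0.12 to 0.87), so OVCAR3 KO was the high library of the 4. DNAH10, a heavy chain of the double-headed inner arm, had 41 counts in OVCAR3 KO and 12 in OVCAR3 mock, at 1.78 (0.97 to 2.99). DNAH14 had 501 counts (34 CPM) in OVCAR3 KO and 251 counts (15.3 CPM) in OVCAR3 mock, at 1.15 (0.93 to 1.38), and -0.11 (-0.31 to 0.09) in SKOV3. DNAH2, the other heavy chain of that inner arm, went the other way, with 5.97 CPM in OVCAR3 KO and 9.62 in OVCAR3 mock, a ratio of -0.68 (-1.08 to -0.30).

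Summed over the 8 inner-arm heavy chains the OVCAR3 ratio was 1.12 (0.98 to 1.26), on 1174 counts in KO and 603 in mock. DNAH14 and DNAH1 held most of these counts, with 501 and 424 in KO and 251 and 97 in mock. The inner-arm sum therefore mainly reflects that pair and not the whole group. The 5 outer-arm heavy chains (DNAH5, DNAH8, DNAH9, DNAH11 and DNAH17) gave 0.49 (0.05 to 0.92) on 103 counts in KO and 82 in mock. All 12 DNAH genes other than DNAH1 together gave 0.69 (0.54 to 0.85), against 1.06 (0.92 to 1.19) for the 13. In SKOV3 the 13 gave 0.08 (-0.07 to 0.22).

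The CFAP genes past the rule included both genes of the dynein tether. CFAP44, the partner of CFAP43 in the tether, had 314 counts (21.3 CPM) in OVCAR3 KO and 84 counts (5.11 CPM) in OVCAR3 mock, a log2 ratio of 2.04 (1.71 to 2.43). CFAP43 had 59 counts (4 CPM) in OVCAR3 KO and 28 counts (1.7 CPM) in OVCAR3 mock, at 1.18 (0.56 to 1.94), and it was the 1 member past the rule in both lines. CFAP44 in SKOV3 had 8.69 CPM in KO and 7.62 in mock, at 0.19 (-0.15 to 0.52).

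CFAP221, a central-pair protein, had 57 counts in OVCAR3 KO and 16 in OVCAR3 mock, at 1.87 (1.17 to 2.89). CFAP74, also of the central pair, had 88 counts in OVCAR3 KO and 43 in OVCAR3 mock, at 1.16 (0.65 to 1.75). CFAP70, which belongs to the outer dynein arm region, had 106 counts in OVCAR3 KO and 39 in OVCAR3 mock, at 1.55 (1.06 to 2.17). These 3 had ratios between -0.18 and 0.23 in SKOV3.

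The remaining CFAP genes past the rule were scarce. CFAP65, needed for sperm flagella, had 25 counts in OVCAR3 KO and 2 in OVCAR3 mock, at 2.94 with a wide interval (1.80 to 6.92). CFAP126, a microtubule inner protein, had 28 counts in OVCAR3 KO and 10 in OVCAR3 mock, at 1.48 (0.56 to 2.85). CFAP69, a sperm flagellum protein, had 68 counts in OVCAR3 KO and 35 in OVCAR3 mock, at 1.08 (0.51 to 1.75), just inside the rule, and CFAP58 (0.87) and CFAP53 (0.86) stood just outside. CFAP77, a microtubule inner protein, was the 1 member that was lower, with 4 counts in OVCAR3 KO and 18 in OVCAR3 mock, at -1.65 (-4.04 to -0.41).

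**Figure D4:**
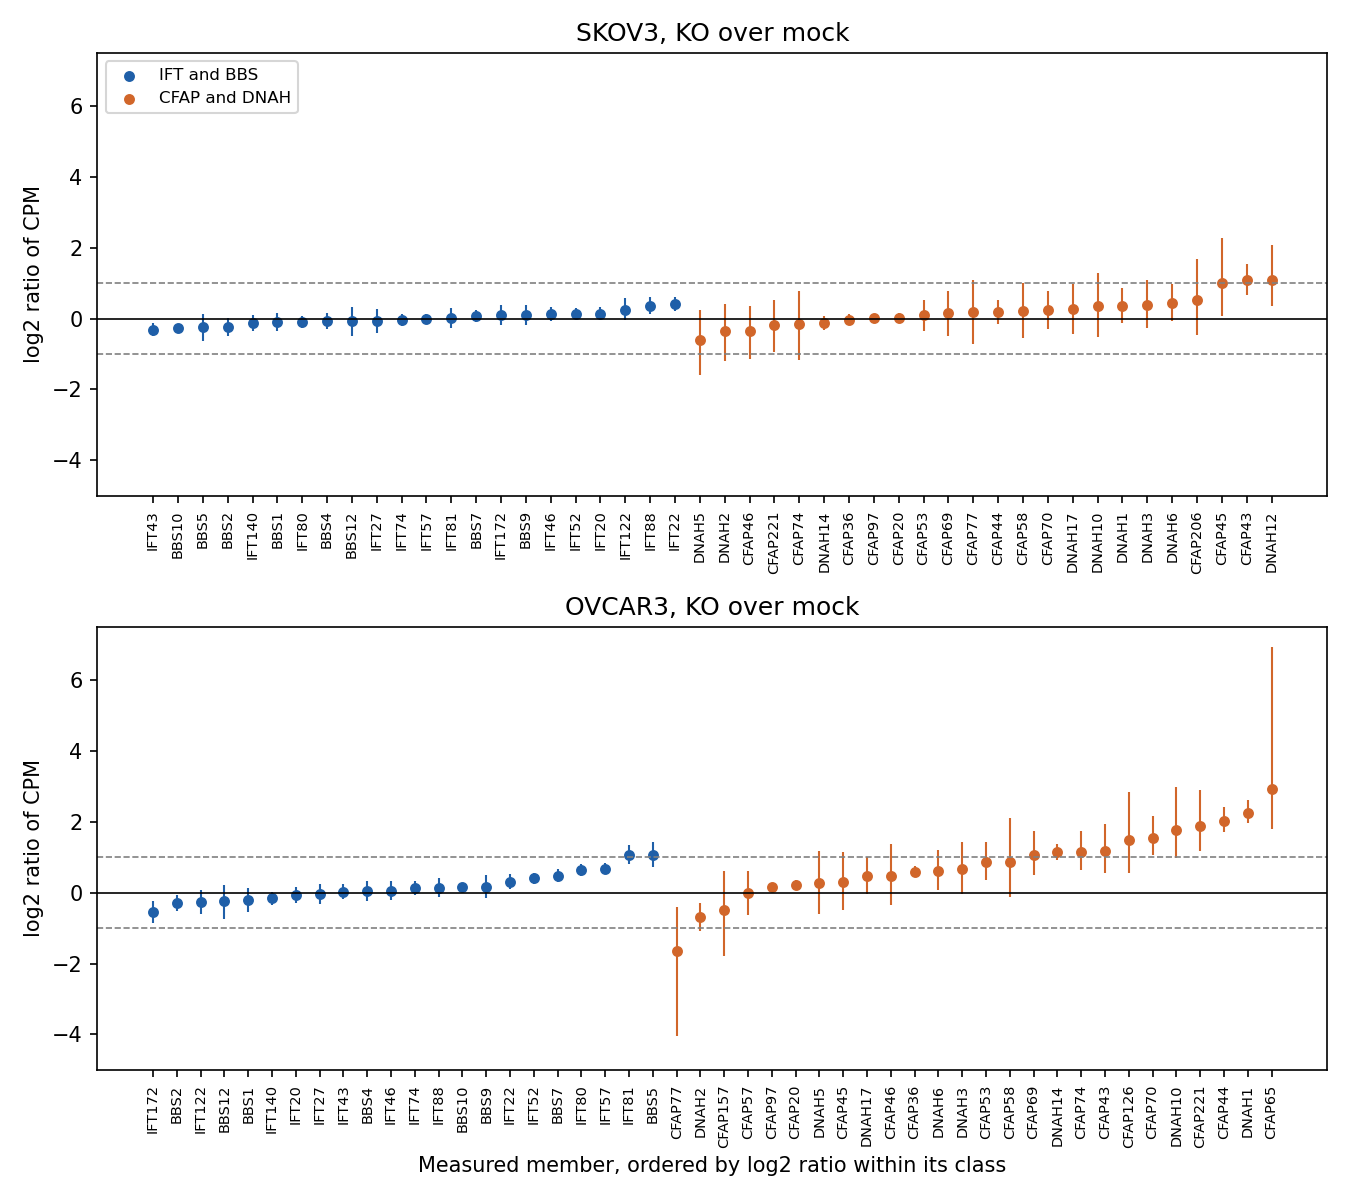
Log2 ratio of KO over mock CPM for each measured member in SKOV3 (top) and OVCAR3 (bottom), ordered within the trafficking (blue) and motile (orange) classes; vertical lines are exact 95% counting intervals and dashed lines mark a ratio of 1 and -1. Trafficking genes in OVCAR3 lie between -0.54 and 1.07, and motile genes between -1.65 and 2.94 with DNAH1 at 2.26 on the narrowest interval of the 3 highest.

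The abundant CFAP20, CFAP36 and CFAP97 showed a smaller difference than the rest of their class. In OVCAR3 their summed ratio was 0.24 (0.18 to 0.30), and that of the other 37 motile genes 1.13 (1.03 to 1.23). In SKOV3 the corresponding ratios were 0.02 (-0.05 to 0.08) and 0.16 (0.05 to 0.26). Protein-coding genes in OVCAR3 differed by level too, with a median of -0.12 at a mean of 5 CPM or more and 0.65 below it. The part of level in the contrast between these motile genes was not tested. CFAP97 alone had 178 CPM in OVCAR3 KO and 160.3 in OVCAR3 mock, and its ratio of 0.15 turned negative under another scaling and was -0.51 with the GC and length trend removed.

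Of the 12 motile genes past the rule in OVCAR3, 8 stayed past it in each of the 3 other scalings: CFAP44, CFAP65, CFAP70, CFAP77, CFAP126, CFAP221, DNAH1 and DNAH10. CFAP43, CFAP69, CFAP74 and DNAH14 did not, and neither did IFT81 or BBS5. DNAH1 ranged from 1.97 to 2.15 in those scalings, and CFAP44 from 1.75 to 1.92.

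Other properties of the OVCAR3 KO library moved with these differences. Protein-coding genes in the 5 groups of rising transcript GC content had median ratios of 0.47, 0.22, -0.18, -0.50 and -0.70. Members in the same groups had medians of 0.86, 0.33, 0.27, 0.17 and 0.16. With the GC and length trend of all protein-coding genes removed, the median was 0.66 for measured motile genes and 0.02 for trafficking genes, and 8 of the 12 motile genes past the rule remained past it. Removing it put DNAH1 at 2.71, BBS5 at 1.37, IFT81 at 0.56 and DNAH14 at 0.51. Antisense genes had a median ratio of 0.91 and processed pseudogenes 1.69 in this library. With mitochondrial rows left out, 11 motile genes were still higher, with a median of 0.75. The part of RNA quality, of cell composition or of the higher non-coding signal in the motile result was not tested. In bulk libraries, a change in the share of cells of a type and a change in RNA per cell cannot be told apart.

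Genes of the cilium with other symbols were set beside the members. In SKOV3 none of the 6 lists held a gene past the rule. The lists are read against 22.5% higher and 15.4% lower among all genes measured in OVCAR3. Among protein-coding genes measured there, 13% were higher and 18.3% lower. These shares depended on level, with 6.86% higher and 19.9% lower at a mean of 5 CPM or more. Of 19 genes for IFT motors and further IFT subunits 3 were higher (15.8%) and 2 lower (10.5%), with a median of 0.42, or 0.005 with the GC and length trend removed. HSPB11, which is the IFT-B subunit IFT25, had 736 counts in OVCAR3 KO and 272 in OVCAR3 mock, at 1.59 (1.39 to 1.80). WDR60, an intermediate chain of dynein-2, stood at 1.42 (1.20 to 1.65), and TTC21B, an IFT-A subunit, at 1.10 (0.93 to 1.29). Of 11 BBSome partners 3 were higher (27.3%) and 0 lower: CCDC28B at 1.64, SDCCAG8 at 1.53 and WDPCP at 1.41. The median of these partners was 0.36, or -0.10 with the trend removed.

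Of 25 transition zone and inversin genes 4 were higher (16%) and 0 lower in OVCAR3, with a median of 0.41, or 0.38 with the trend removed. AHI1 and CEP290, both of the transition zone, stood at 1.21 and 1.10. Of 17 basal body and ciliary membrane genes 3 were higher (17.6%) and 1 lower (5.88%), with a median of 0.56, or 0.34 with the trend removed. OFD1 and CEP164 of the centriole stood at 1.25 and 1.15, and TULP3, an adaptor that brings receptors into the cilium, at -1.28 (-1.50 to -1.07). TTC21B, AHI1, CEP290, OFD1 and CEP164 each fell short of the rule under at least 1 other scaling, and WDPCP did so with the trend removed.

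Of 55 other motile axoneme genes 36 were measured in OVCAR3, with 11 higher (30.6%), 2 lower (5.56%) and a median of 0.59. STK36, a kinase of the central pair, stood at 1.48 (1.16 to 1.84). DNAAF5, which helps assemble dynein arms in the cytoplasm, had 274 counts in OVCAR3 KO and 1471 in OVCAR3 mock, at -2.26 (-2.46 to -2.08). This list therefore held large differences in both directions. In the lists given so far the shares higher lay on both sides of the 22.5% of all genes, and above the 13% of protein-coding genes. The lists were not split by level, and nothing particular to cilium genes is read from them.

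Of 15 ciliogenesis transcription factors 12 were measured, and in OVCAR3 1 was higher (8.33%) and 3 lower (25%). RFX1 had 83 counts in OVCAR3 KO and 424 in OVCAR3 mock, at -2.17 (-2.55 to -1.85), and RFX2 had 126 counts in KO and 292 in mock, at -1.05 (-1.37 to -0.75). RFX3, RFX5 and RFX7 had ratios between 0.05 and 0.65. MYB, which acts early in multiciliated cells, stood at 1.63 (1.10 to 2.30), and TP73, another early regulator, at -1.02 (-1.39 to -0.67). RFX2 and TP73 were past the rule by little, and neither was with the GC and length trend removed. The other factors, E2F4, E2F5, TFDP1, MCIDAS and CCNO, lay between -0.67 and 0.61. In SKOV3 the 12 lay between -0.24 and 0.63.

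Over both lines together edgeR's quasi-likelihood test, with the line as a block, called no gene at a Benjamini-Hochberg adjusted p of 0.05 among 13670 tested (0% in each direction), with 140 genes under an unadjusted p of 0.05 (0.505% higher and 0.519% lower). DESeq2 also called 0 genes, with 412 under an unadjusted p of 0.05. Of the 45 members tested 0 were called, and 1 had an unadjusted edgeR p under 0.05. This was DNAH1, with a log2 fold change of 1.36 and an adjusted edgeR p of 0.956. Its ratio was above 0 in 2 of 2 lines, but in SKOV3 it was 0.37 (-0.12 to 0.87), short of the size rule. The test had 1 residual degree of freedom.

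The mock libraries of the lines were compared as a baseline, and they are the same mock libraries that enter the knockout ratios. Trafficking genes had a median log2 ratio of OVCAR3 over SKOV3 of -0.02, and of the 22 genes 0 were higher and 0 lower, against 9.47% higher and 5.52% lower among all 13721 measured. Of 24 measured motile genes 5 were higher in OVCAR3 and 0 lower. Among protein-coding genes with a mean under 5 CPM over the 4 libraries 25.6% were higher and 9.76% lower, and 5 of 18 motile genes were higher (27.8%), near the background. At 5 CPM or more 6.86% were higher and 3.29% lower, and 0 of 6 motile genes were higher. DNAH2 had 158 counts (9.62 CPM) in OVCAR3 mock and 41 counts (1.82 CPM) in SKOV3 mock, at 2.33 (1.90 to 2.94). CFAP57, which helps place inner dynein arms, had 48 counts in OVCAR3 mock and 15 in SKOV3 mock, at 1.96 (1.28 to 3.08). CFAP45, CFAP157 and CFAP74 stood at 1.30, 1.24 and 1.11. DNAH2 and CFAP57 were also higher in OVCAR3 than in SKOV3 among the KO libraries, at 5.97 and 2.92 CPM in OVCAR3 KO against 1.4 and 0.571 CPM in SKOV3 KO.

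For the line difference over both genotypes, edgeR called 4 genes higher in OVCAR3 (0.0293%) and 1 lower (0.00732%). None of these was a member, and 4 of 45 members had an unadjusted p under 0.05, all higher in OVCAR3, against 6.43% of all genes higher and 5.68% lower. DNAH2 had a log2 fold change of 2.25 with an adjusted edgeR p of 0.257, and CFAP57 2.23 with an adjusted edgeR p of 0.289, both higher in OVCAR3 in 2 of 2 genotypes.

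The precision of a member's ratio followed its counts. The median width of an interval to either side was 0.23 for trafficking and 0.69 for motile genes in SKOV3, and 0.24 and 0.62 in OVCAR3. The spans of 20 members (7 trafficking and 13 motile) overlap another coding gene, such as CFAP44 with BOC, CFAP69 with FAM237B and CFAP97 with SNX25. Their counts are uncertain, since the sources used here do not give the strand setting of the counting. Overlaps with non-coding genes were not counted there. CFAP44 shares 154585 bases with the non-coding SPICE1-CFAP44, against 530 with BOC, and CFAP65 shares 12877 with CFAP65-AS1.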

How the data were processed

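Total RNA was extracted with Trizol and sequenced from NEBNext Ultra II Directional libraries, per the labels' protocols. The authors deposited whole-number counts for each gene symbol, with no normalisation. TopHat and GRCh38 are named in the submitters' processing notes; how reads were counted, on which annotation and with which strand setting is not given in the sources used here. Rows sharing a symbol (2687 symbols) were summed. Counts were scaled with the trimmed mean of M values (edgeR 4.0.16 in R 4.3.3; factors 1.04 for SKOV3 KO, 1.02 for SKOV3 mock, 0.931 for OVCAR3 KO and 1.01 for OVCAR3 mock), computed on the 13670 genes with 1 CPM or more in at least 2 libraries. Factors over all genes were computed first; they were replaced after results were seen, so that scaling follows earlier processing of these data, and are kept as an alternative. Log2 ratios used a prior count of 2. Genes were called where the log2 ratio reached 1 or -1 and either library reached 1 CPM. Transcript lengths and GC content are from GENCODE 29, and all 62 members had a value. Without molecular identifiers, the intervals and the limits for a count of 0 describe counting error alone. The edgeR quasi-likelihood fit used all 4 libraries with line and knockout as terms; DESeq2 1.42.0 was an alternative. Nothing says that libraries came from separate cultures beyond their labels, so a p-value speaks only of the spread among these 4 libraries. The calculations were tested on simulated data with less spread between libraries than these data have, so that test checks the code only. Members and gene lists were chosen with earlier results of these data known. Members past the size rule with 20 counts or more over the pair (up to 12 per line and class), the 5 highest per length in each class, up to 3 genes of each other list with 100 counts or more, and the measured transcription factors were named with values; the 5 motile genes that differed between mock libraries, the 3 abundant CFAP genes, the role groups and further members named for contrast were chosen after their values were seen. Some genes that this rule would name are not reported here.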

Additional observations from a re-analysis of the deposited data

Results flagged for a closer look

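BBS10 moved in opposite directions in the lines. Its log2 ratio of KO over mock was -0.26 (-0.38 to -0.14, counting interval) in SKOV3 and 0.15 (0.03 to 0.29) in OVCAR3. The difference between the lines was not tested, since each group held 1 library. The OVCAR3 value turned to -0.05 with DESeq2 size factors and to -0.14 with factors computed over all genes. With the GC and length trend removed it was -0.51 in OVCAR3 and -0.28 in SKOV3, so both lines then had the same direction.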

How the results depend on the processing

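Scaling, removal of the GC and length trend, and the level filter moved OVCAR3 results, and no called direction turned round. Of the single genes named in OVCAR3, 11 moved and 10 lost their call with DESeq2 size factors, 13 and 11 with factors over all genes, and 10 and 11 with the trend removed. With DESeq2 size factors, no scaling factor and factors computed over all genes (added after the data were seen), the median of all genes in OVCAR3 shifted by -0.20, -0.11 and -0.28. The trafficking median was then -0.117, -0.023 and -0.198, with 0 genes higher in each. The motile median was 0.56, 0.65 and 0.48, and 7 motile genes were higher with DESeq2 size factors and with all-gene factors. With the GC and length trend removed, 1 trafficking gene was higher, beside 11.8% of protein-coding genes, and the medians were 0.017 (trafficking) and 0.66 (motile). A filter of 5 CPM left 5 motile genes higher and 0 lower with a median of 1.00, beside 12.1% higher and 18.3% lower among all genes. No filter gave a motile median of 0.66, beside 0.51 over all genes. Split by the higher library of a pair, the division first used, 6 of 16 motile genes under 5 CPM and 5 of 10 above were higher in OVCAR3. Among protein-coding genes at these levels 38.6% and 8.69% were higher. In SKOV3 the 5 CPM filter left 1 motile gene higher, with a median of 0.03, beside 0.0557% of all genes higher. Between the mock libraries the trafficking median was 0.13 with the trend removed. Motile genes were then 3 higher and 1 lower with a median of -0.10, beside 7.44% and 4.58% of protein-coding genes. The 5 CPM filter gave 1 motile gene higher and a median of 0.073, beside 7.54% of all genes higher. No filter gave 2 motile genes lower there, beside 8.74% of all genes, and a prior count of 0.5 gave 1, beside 5.8%. Over both lines edgeR called 1 gene with no filter. For the line difference 186 genes were called by DESeq2, 0 by edgeR with DESeq2 size factors (1431 under an unadjusted p of 0.05) and 226 with no filter. The motif GTTACC was found for 15% of trafficking and 11.4% of motile genes, beside 7.88% of all genes. GTTGCCAT was found for 0% and 17.1%, beside 1.63%, and the paired form for 0% and 5.71%, beside 0.593%. The cause of these moves was not tested. Low counts limit the motile genes most: 10 of the 40 had at most 10 counts in every library. No paired analysis was possible because each group held 1 library and the labels give only replicate number 1, so no number pairs libraries; the edgeR fit sets KO against mock within each line through its line block.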
